A study of Homo sapiens with 60 samples.

Results

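METTL7A and METTL7B are paralogous genes on chromosome 12, and what follows are the chromatin peaks listed around them in PC9, a human lung adenocarcinoma line whose growth depends on mutant EGFR. Peaks were taken from 2 windows on GRCh37. The first, of 150 kb, ran from 51250000 to 51400000 around METTL7A (51317255 to 51326300), and the second, of 105 kb, from 56025000 to 56130000 around METTL7B (56075330 to 56078395). The windows were set by gene position and no measured value, but with earlier results of these data known. Of 507516 peaks in 24 lists, 76 fell in the windows, 16 at METTL7A and 60 at METTL7B, and they formed 6 and 9 sites when overlapping peaks of all lists were joined.

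The peaks came from CUT&RUN, in which a nuclease tethered to an antibody releases the bound chromatin fragments for sequencing. The antibodies were against H3K27Ac, a histone mark of active promoters and enhancers, RAD21, a subunit of the cohesin ring, and PDS5A, a cohesin-associated regulator of loading and release, with IgG as background control. Rescue cells were METTL7A knockout cells made to overexpress METTL7A with MYC and FLAG tags, KO cells carried the METTL7A knockout, and WT cells were unmodified PC9; each genotype was under osimertinib, an EGFR inhibitor, or untreated. Treated cells received a dose raised from 100 nM over 6 to 8 weeks. Each list joined 2 samples of a group, so 48 samples stood behind the 24 lists, and each condition had 1 list for an antibody and no replicate list. The promoter driving the transgene, the edit in the knockout and whether a line is a single clone are not given in the sources used here. The lists hold peak positions and scores and no reads by base, so neither the knockout nor the transgene was checked in them, and PC9 identity was not checked against marker genes.

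METTL7A and METTL7B, now also called TMT1A and TMT1B, encode membrane-associated methyltransferases of the endoplasmic reticulum and lipid droplets that methylate thiol groups on small molecules. Cohesin holds sister chromatids together and extrudes chromatin loops, and its peaks often lie at loop anchors and at active promoters. In the RefSeq table (GRCh38.p14), the protein-coding genes next to METTL7A were TMPRSS12 on one side and HIGD1C and SLC11A2 on the other, and those next to METTL7B were OR10P1 on one side and ITGA7, BLOC1S1, RDH5 and CD63 on the other. CD63 encodes a tetraspanin of endosomes and extracellular vesicles, ITGA7 an integrin subunit that binds laminin, RDH5 a retinol dehydrogenase and BLOC1S1 a subunit of a lysosome-related organelle complex. That build differs from the build of the lists, so the order of genes was used and no peak was assigned to a neighbour.

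The promoters of both members are shown because the closest peaks to each gene lay at or just after its start. The sequences are the 250 bases before the RefSeq start on the plus strand, with capitals at any match to 4 common promoter motifs. The METTL7A sequence lies at chr12:50924765-50925014 and the METTL7B sequence at chr12:55681486-55681735, both on GRCh38.p14.
METTL7A: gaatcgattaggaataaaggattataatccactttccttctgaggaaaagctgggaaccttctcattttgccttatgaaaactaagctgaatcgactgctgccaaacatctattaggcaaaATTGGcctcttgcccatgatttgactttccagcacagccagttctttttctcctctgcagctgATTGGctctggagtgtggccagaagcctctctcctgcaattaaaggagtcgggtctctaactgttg
METTL7B: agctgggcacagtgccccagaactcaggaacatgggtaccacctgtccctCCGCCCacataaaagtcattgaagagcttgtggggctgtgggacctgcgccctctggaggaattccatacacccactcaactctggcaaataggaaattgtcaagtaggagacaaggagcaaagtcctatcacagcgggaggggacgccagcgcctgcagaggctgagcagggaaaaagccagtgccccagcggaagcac
The motifs searched on both strands were the TATA box TATAAA, the CCAAT box CCAAT, the GC box GGGCGG and the AP-1 motif TGANTCA. METTL7A held 2 CCAAT boxes, both on the minus strand and starting 129 and 66 bases before the RefSeq start, an element present in 32.0% of 35116 RefSeq promoters of the same length. METTL7B held 1 GC box on the minus strand, starting 200 bases before the start, found in 42.6% of promoters. No match overlapped another, and neither promoter held the letters of the TATA box (10.7% of promoters) or of the AP-1 motif (6.57%). G and C made up 44.4% of the METTL7A and 57.2% of the METTL7B promoter, against a median of 58.0% over all promoters, with 3 and 6 CG dinucleotides against a median of 11. The gene model of METTL7A used for the windows was 9046 bp long and the RefSeq model 7494 bp, a difference of 1552 bp, so the 2 models need not start at the same base. For METTL7B the models differed by 190 bp.

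Neither gene itself carried a reproducible peak. A peak is called here where its global IDR, the irreproducible discovery rate that measures how well the rank of a peak agrees between replicates, was 0.05 or less (−log10 of about 1.3 or more). Of the 16 peaks at METTL7A 2 were called, and of the 60 at METTL7B 20 were called, but no called peak lay within 2 kb of either gene. For H3K27Ac 1 of 8 peaks at METTL7A and 6 of 15 at METTL7B were called, against 26.6% of all listed H3K27Ac peaks. For RAD21 0 of 3 and 4 of 16 were called, against 35.5%, and for PDS5A 1 of 5 and 10 of 27, against 32.6%. IgG had 0 listed peaks at METTL7A and 2 at METTL7B, neither called, against 3.11% of all IgG peaks.

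Over H3K27Ac, RAD21 and PDS5A together, Rescue cells held most of the called peaks at both loci, but RAD21 alone did not follow this at METTL7B. At METTL7B, Rescue lists of H3K27Ac, RAD21 and PDS5A had 13 of 26 peaks called, where 37.4% of all listed Rescue peaks were called. KO lists had 1 of 12, where 22.6% were called, and WT lists had 6 of 20, where 29.4% were called. For RAD21 alone 1 of 7 Rescue peaks, 0 of 4 KO peaks and 3 of 5 WT peaks were called there. At METTL7A the 2 called peaks were both in Rescue lists, with 10 listed Rescue peaks, 4 KO peaks and 2 WT peaks. Rescue lists of these 3 antibodies held the most peaks in the genome as well. They had 73520 called of 196536 listed peaks, KO lists 28772 of 127175 and WT lists 50014 of 170306. Untreated WT cells had 0 listed peaks of any antibody at METTL7A and 9 at METTL7B, of which 0 were called. Lists differed in length: the called peaks in a list numbered 5111 to 14455 for H3K27Ac, 3692 to 16659 for RAD21, 914 to 14052 for PDS5A and 10 to 315 for IgG, and the lists do not give the read depth obtained for each sample.

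Peaks were sparse around METTL7A and more frequent around METTL7B than on chromosome 12 on average. Summed over the 6 lists of an antibody, the METTL7A window held 8 H3K27Ac, 3 RAD21 and 5 PDS5A peaks. A stretch of that length held on average 12, 8.48 and 8.55 on the chromosome. The METTL7B window held 15, 16 and 27, against chromosome averages of 8.42, 5.94 and 5.98. All 3 antibodies exceeded the average at METTL7B and none did at METTL7A. The IgG control did the same, with 2 peaks at METTL7B against an average of 0.564, and 0 at METTL7A against 0.805.

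**Figure D1:**
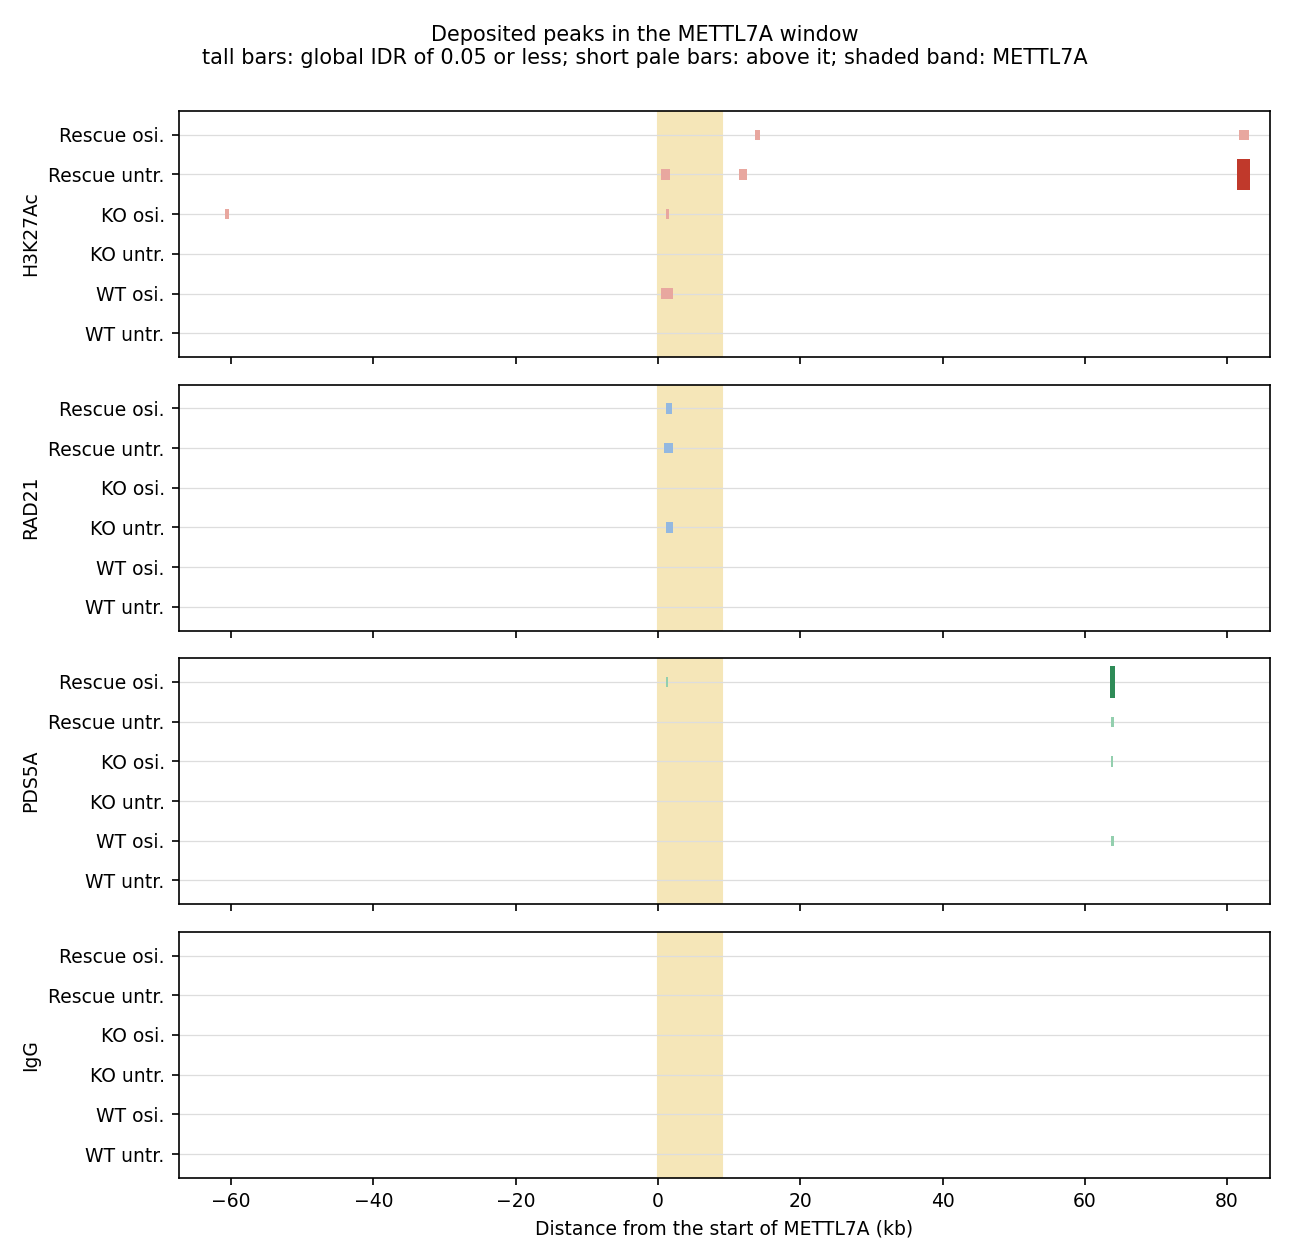
Peaks in the METTL7A window, by distance from the gene start in kb, with a panel for each antibody and a row for each condition (osi., osimertinib; untr., untreated). Tall bars are called peaks and short pale bars are listed peaks above the IDR limit, both drawn to scale; the 2 tall bars lie far after the gene, and the rows of untreated WT cells are empty.

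At METTL7A itself, a single site from 51317659 to 51319348 held 7 of the 16 peaks, in lists of Rescue, KO and WT cells, and none was called. The site lay inside the gene model, from 404 to 2093 bp after its start. It appeared for H3K27Ac in untreated Rescue, treated KO and treated WT cells, for RAD21 in treated Rescue, untreated Rescue and untreated KO cells, and for PDS5A in treated Rescue cells alone. No list of untreated WT cells and no IgG list had it.

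H3K27Ac there was called in none of the 3 lists that had it. The −log10 p values of the peak, the authors' own score, are given for the first and then the second replicate column of a list. They were 9.07 and 9.66 in untreated Rescue cells, 3.14 and 9.96 in treated KO cells, and 7.85 and 13.9 in treated WT cells. By the lower of the 2 values these peaks ranked 17753 of 39514, 38472 of 39199 and 19417 of 44132 in their lists, so the first and the last stood above the middle of their lists and that of KO cells near the end. The peak was 1238 bp wide in untreated Rescue, 409 bp in treated KO and 1690 bp in treated WT cells.

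RAD21 at the METTL7A site differed most between the 2 samples of a list. In untreated Rescue cells the values were 60.6 in the first and 5.74 in the second replicate column. In untreated KO cells they were 87.9 and 6.29. Treated Rescue cells had 10.8 and 20.8, so there the second column was the higher one.

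Within the first replicate column alone, the RAD21 peak of untreated Rescue cells ranked 1576 of 24689 and that of untreated KO cells 172 of 19011. Within the second column they ranked 21338 in Rescue and 13635 in KO cells. In the untreated Rescue list 0.239% of peaks had a ratio of the first to the second value at least as high, and in the untreated KO list 7 peaks did, this one included, or 0.0368%. On the log2 scale the ratio was 3.40 in Rescue cells, where the list median was 0.64, and 3.81 in KO cells, where it was 0.38. The −log10 global IDR was 0.613 in Rescue and 0.476 in KO cells, so neither peak was called. In treated Rescue cells the log2 ratio was -0.94, where the list median was 0.69, and 98.7% of the list had a ratio at least as high, so that peak stood toward the other end of its list.

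The strong first-column peak ended at the same base, 51319315, in untreated Rescue and untreated KO cells, and began at 51318457 in Rescue and 51318380 in KO cells. The weak second-column peak ended earlier, at 51318658 in Rescue and 51318645 in KO cells. Exon positions on GRCh37 were not used here, so whether this base is an exon end was not tested. Reads from a transgene or plasmid copy of METTL7A would be placed at the gene as well, and their part in these peaks was not tested. PDS5A of treated Rescue cells, with values of 7.57 and 6.95, lay in the same stretch, from 51318389 to 51318661.

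**Figure D2:**
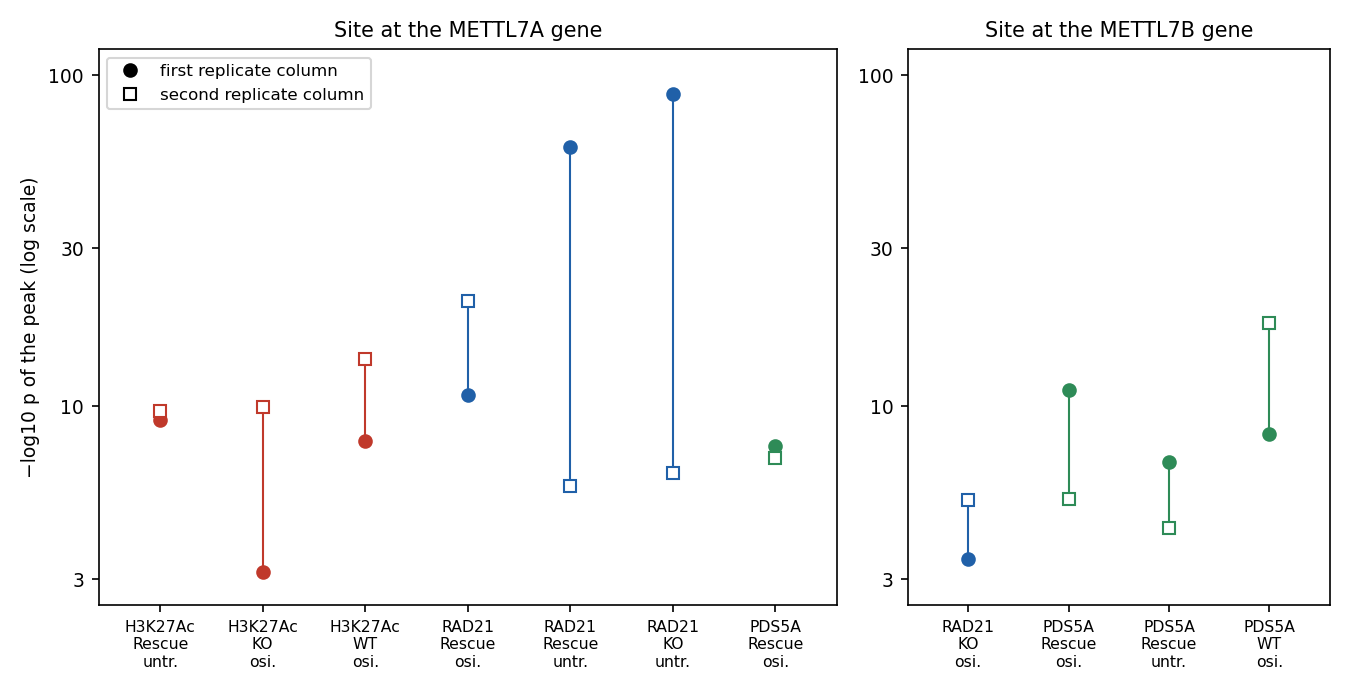
The −log10 p (log scale) of each listed peak at the METTL7A site and at the METTL7B site, with the first and second replicate columns of a list joined by a line. RAD21 in untreated Rescue cells (60.6 and 5.74) and in untreated KO cells (87.9 and 6.29) has the widest gaps; the other peaks lie between 3.14 and 20.8.

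Away from METTL7A, only Rescue cells had called peaks in the window. The site from 51380851 to 51381471, 63.6 kb after the gene start, was listed for PDS5A and for no other antibody. It was called in treated Rescue cells, with values of 35.3 and 16.4 (−log10 IDR 2.152), and missed the limit in untreated Rescue cells, with 12.9 and 18.1 (1.295). Treated KO cells had 10.2 and 9.99 and treated WT cells 11.7 and 5.04, neither called. No peak was listed there in untreated KO or untreated WT cells, so every treated genotype had a PDS5A peak and of the untreated ones only Rescue cells. The untreated KO and untreated WT lists were the shortest of PDS5A, with 9235 and 14398 peaks against 18356 to 34787 in the others. The treated WT peak ranked 30475 of 34787 in its list. The part of list length in the missing peaks was not tested.

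The other called site ran from 51398673 to 51400447, past the edge of the window, and was listed for H3K27Ac in Rescue cells alone. Its values were 7.74 and 17.03 in treated Rescue cells (−log10 IDR 0.419) and 13.7 and 17.9 in untreated Rescue cells (1.696, called). The remaining sites had 1 uncalled H3K27Ac peak each, at 60.9 kb before the gene start in treated KO cells, and at 11.4 and 13.7 kb after it in untreated and treated Rescue cells. The nearest called H3K27Ac peak on the chromosome was 72.4 kb past the gene end in untreated Rescue cells and 80.2 to 93.2 kb away in the other 5 lists. For RAD21 the nearest called peak lay 93.2 to 115 kb away in all 6 lists, and for PDS5A 54.6 kb away in treated Rescue cells and 93.3 to 115 kb away in the others.

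At METTL7B itself, PDS5A was listed at the start of the gene in treated Rescue, untreated Rescue and treated WT cells, and H3K27Ac in none of the 6 lists. The site ran from 56075015 to 56075895, from 315 bp before the gene start to 565 bp after it. PDS5A values were 11.2 and 5.25 in treated Rescue cells, 6.80 and 4.28 in untreated Rescue cells, and 8.25 and 17.8 in treated WT cells. KO cells had no PDS5A peak there, but under osimertinib a RAD21 peak with values of 3.46 and 5.20. None of the 4 peaks was called, and by the lower value they ranked 22595 of 27176, 31319 of 33602, 19927 of 34787 and 17224 of 17690 in their lists.

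**Figure D3:**
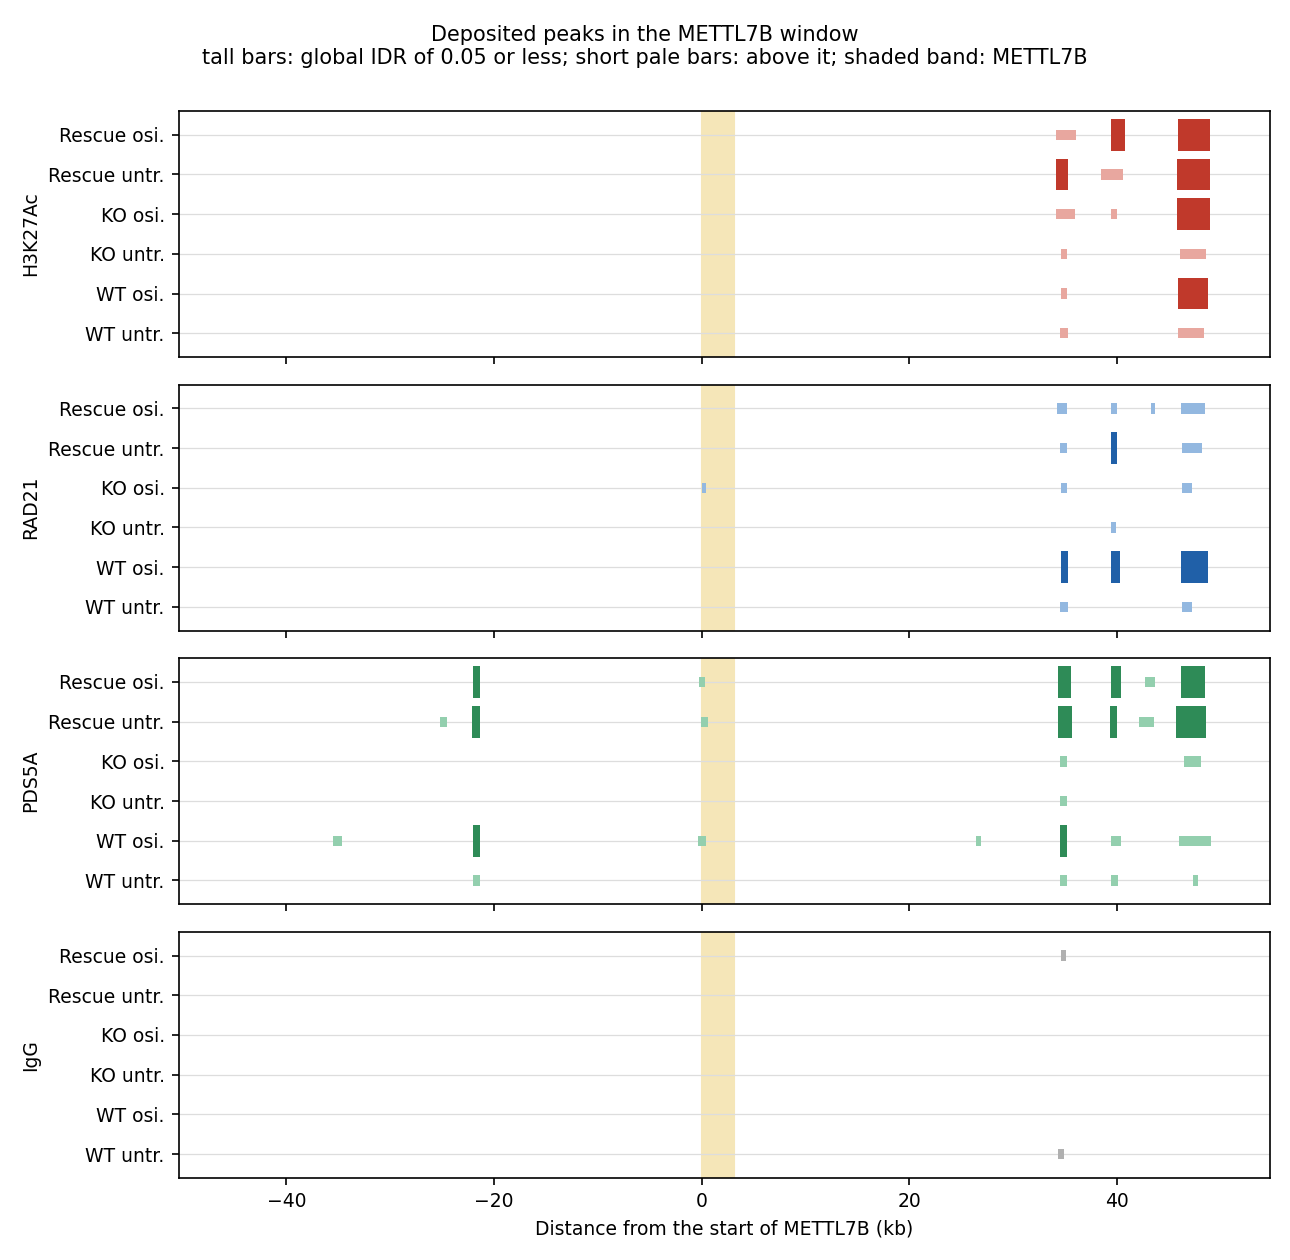
Peaks in the METTL7B window, by distance from the gene start in kb, with a panel for each antibody and a row for each condition (osi., osimertinib; untr., untreated). Tall bars are called peaks and short pale bars are listed peaks above the IDR limit, both drawn to scale; called peaks lie at 1 site before the gene, for PDS5A, and at 3 sites 34.1 to 49.1 kb after its start.

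Before METTL7B, a PDS5A site without RAD21 or H3K27Ac was called in treated Rescue, untreated Rescue and treated WT cells and listed in no KO cells. It ran from 56053177 to 56053962, between 22.2 and 21.4 kb before the gene start, and no IgG peak was listed on it. The values were 29.1 and 18.6 in treated Rescue cells, 24.7 and 14.5 in untreated Rescue cells, and 20.5 and 29.0 in treated WT cells. In untreated WT cells the peak was listed, with 11.6 and 4.68, but was not called (−log10 IDR 0.221). The PDS5A lists of KO cells were shorter than those of WT cells under the same treatment, with 18356 peaks in treated KO against 34787 in treated WT cells, and 9235 in untreated KO against 14398 in untreated WT cells. The part of list length in the missing KO peak was not tested.

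After METTL7B, 3 sites held 46 of the 60 peaks of the window. The first ran from 56109427 to 56111327, 34.1 kb after the gene start, and was listed in 19 of 24 lists. All 6 H3K27Ac and all 6 PDS5A lists had it, 5 of the 6 RAD21 lists did, and it was the only site with IgG peaks. IgG values there were 4.36 and 5.24 in treated Rescue cells and 4.59 and 5.38 in untreated WT cells, ranked 452 of 898 and 381 of 1059 in their lists. The part of this background in the peaks of the other antibodies at this site was not tested.

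H3K27Ac at this first site was called in untreated Rescue cells alone. The values were 16.5 and 4.52 in treated Rescue cells and 18.8 and 20.7 in untreated Rescue cells. In treated KO cells they were 11.1 and 14.6 and missed the limit narrowly (−log10 IDR 1.276), and in untreated KO cells 8.999 and 6.34. Treated WT cells had 3.74 and 9.43 and untreated WT cells 7.61 and 7.48. RAD21 was called there in treated WT cells, with 24.3 and 11.7, and PDS5A in treated Rescue, untreated Rescue and treated WT cells.

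The second site, from 56113752 to 56116099 and 38.4 kb after the start, was listed for all 3 antibodies but not IgG, and its PDS5A peak in untreated Rescue cells ranked 3231 of 33602. PDS5A values were 47.97 and 15.999 in treated Rescue cells and 30.7 and 36.2 in untreated Rescue cells, both called. Treated WT cells had 21.4 and 10.1 and untreated WT cells 10.4 and 6.88, neither called, and no KO list of PDS5A had the site. RAD21 was called there in untreated Rescue cells, with 37.0 and 15.4, and in treated WT cells, with 28.6 and 13.0. H3K27Ac was called in treated Rescue cells, with 11.7 and 15.6, and was listed but not called in untreated Rescue cells, with 24.8 and 7.06. In KO cells the site was listed but not called for RAD21 when untreated, with 12.9 and 4.05, and for H3K27Ac under osimertinib, with 6.41 and 6.57.

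The third site, from 56121043 to 56124391 and 45.7 kb after the start, was the broadest and the one where H3K27Ac was called most often. H3K27Ac values were 32.1 and 28.7 in treated Rescue and 34.3 and 30.1 in untreated Rescue cells. In treated KO cells they were 24.98 and 25.1, and in untreated KO cells 21.3 and 7.38. Treated WT cells had 16.5 and 17.6 and untreated WT cells 10.7 and 12.6. The 2 untreated lists of KO and WT cells missed the limit and the other 4 passed it, with peaks 2897 to 3183 bp wide. In the treated KO list this peak ranked 1506 of 39199, the top 3.84% of that list.

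**Figure D4:**
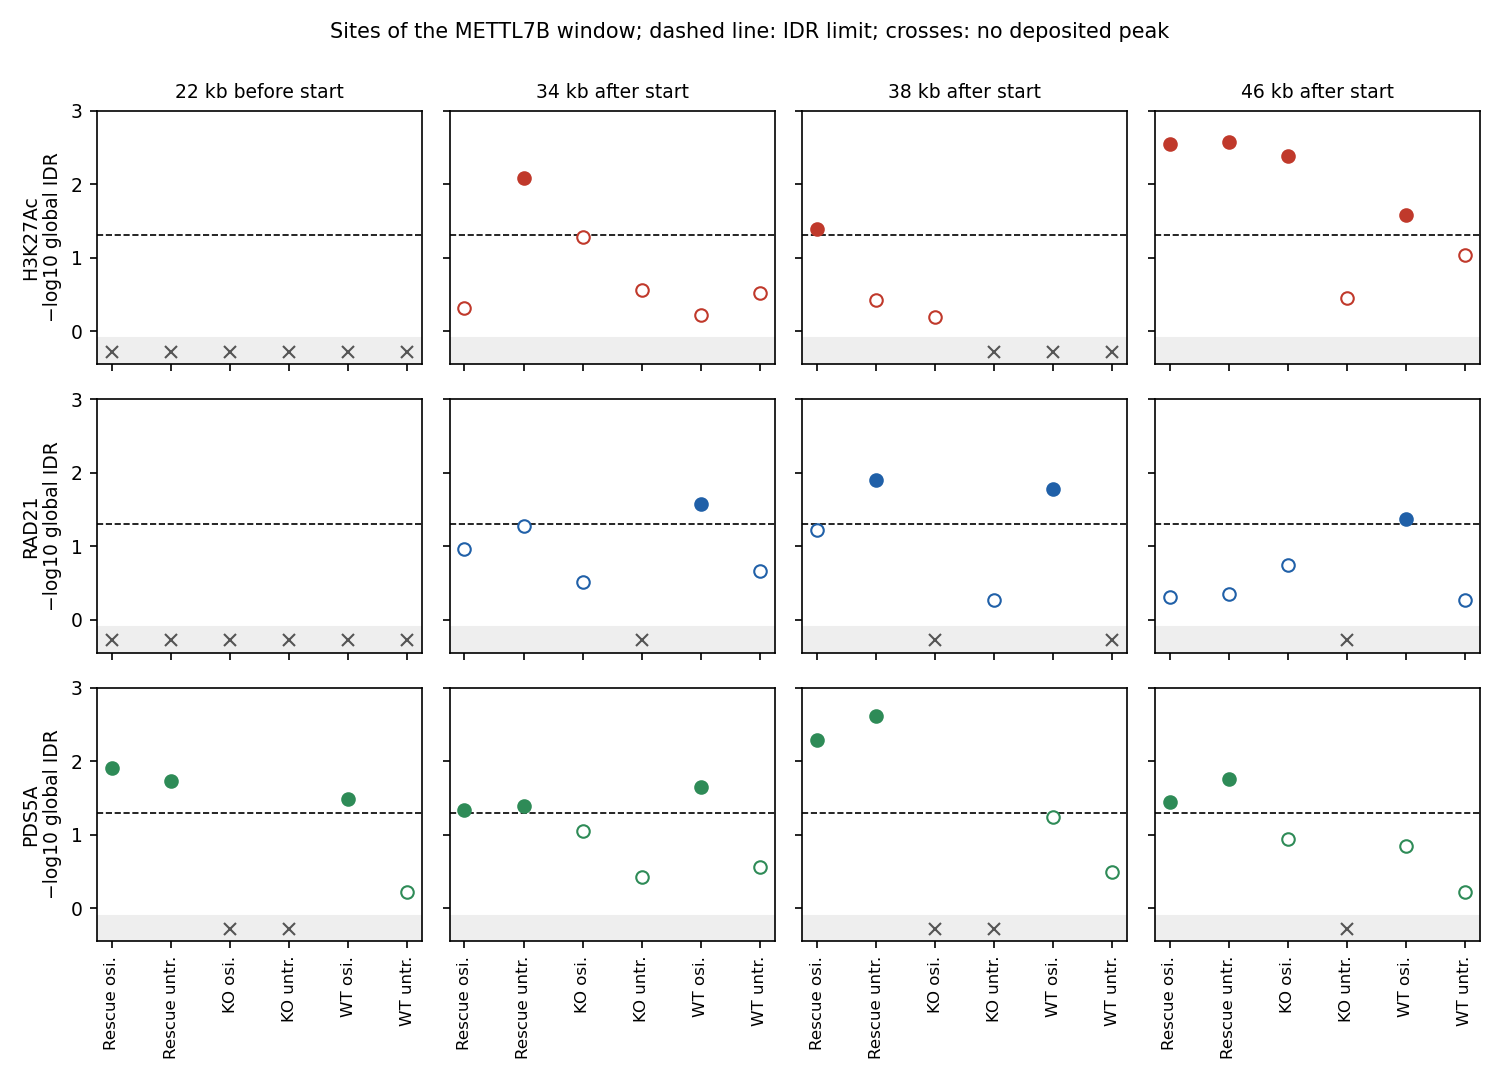
The −log10 global IDR of the peak in each condition (osi., osimertinib; untr., untreated) at the 4 sites of the METTL7B window that held called peaks, by distance of the site from the gene start. Filled points pass the limit (dashed line, an IDR of 0.05), open points do not, and crosses mark lists with no peak; KO cells pass it for H3K27Ac at 45.7 kb after the start under osimertinib and at no other point.

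Many peaks lay close to the limit. Just inside it were PDS5A of treated Rescue cells at the first site after METTL7B (1.339) and RAD21 of treated WT cells at the third (1.373). Just outside it were the PDS5A peak of untreated Rescue cells after METTL7A (1.295), RAD21 of untreated Rescue cells at the first site (1.281), PDS5A of treated WT cells at the second (1.236) and RAD21 of treated Rescue cells at the second (1.222). The other sites of the METTL7B window had no called peak: PDS5A was listed in treated WT cells 35.5 kb before and 26.4 kb after the start and in untreated Rescue cells 25.2 kb before it. A further site 42.1 kb after it had PDS5A in treated and untreated Rescue cells and RAD21 in treated Rescue cells. From METTL7B, the nearest called H3K27Ac peak lay 31.1 kb past the gene end in untreated Rescue cells and 242 kb past it in untreated WT cells. The nearest called RAD21 peak was 31.5 kb away in treated WT cells and 394 kb away in untreated WT cells. In Rescue cells it was 132 kb away when treated and 36.3 kb when untreated, and in KO cells 394 kb and 357 kb. For PDS5A it was 21.4 kb before the gene start in treated WT and in treated and untreated Rescue cells. Past the gene end it was 53.5 kb away in treated KO, 53.7 kb in untreated WT and 433 kb in untreated KO cells.

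Under osimertinib, WT cells gained called sites around METTL7B for all 3 antibodies and none around METTL7A, and the PDS5A share was no higher than in the genome. For this comparison, sites were joined over the 6 lists of each antibody separately, and a gained site was called in the first condition and not in the second. RAD21 gained 3 of its 5 sites at METTL7B, against 29.6% of 44984 RAD21 sites in the genome. PDS5A gained 2 of 9, against 24.6% of 44465, and H3K27Ac 1 of 3, against 9.92% of 68103. At a global IDR of 0.01 or less, none of these METTL7B sites was called in treated WT cells. Of the 3 RAD21 sites 1 had no listed peak in untreated WT cells, and each of the others was listed there but not called. That is 1 of 5 sites, where 15.4% of RAD21 sites in the genome were gained with no listed peak. Of called treated WT peaks anywhere, 80.6% of RAD21, 88% of PDS5A and 68.5% of H3K27Ac were not called in untreated WT cells. Whether these loci differ from the genome was not tested, and so few sites cannot show it.

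Treated KO cells gained the H3K27Ac site 45.7 kb after METTL7B, 1 of 3, against 6.51% of H3K27Ac sites. They gained no RAD21 or PDS5A site, where 2.93% of RAD21 and 7.41% of PDS5A sites in the genome were gained. In treated Rescue cells 1 of 3 H3K27Ac sites at METTL7B was gained and another was lost, and 1 of 5 at METTL7A was lost, against 5.16% gained and 7.12% lost in the genome. Each of these H3K27Ac sites was listed in Rescue cells with and without the drug. The uncalled peaks at METTL7B had unlike replicate values, 16.5 and 4.52 at the lost site and 24.8 and 7.06 at the gained site. Treated Rescue cells lost 1 of 5 RAD21 sites at METTL7B, against 4.68%, and gained 1 of 2 PDS5A sites at METTL7A, against 5.43%. Their 4 called PDS5A sites at METTL7B were called with and without the drug. Of called H3K27Ac peaks, 55% of those of treated KO and 28.6% of those of treated Rescue cells were not called without the drug. Of called untreated Rescue peaks, 35.4% of H3K27Ac and 23.3% of RAD21 were not called under the drug. Of called PDS5A peaks of treated Rescue cells, 21.5% were not called in untreated Rescue cells.

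Between genotypes, KO and WT cells did not differ in any called site when untreated, since neither had one in these windows. This depends on where the METTL7B window ends. Past its edge, untreated WT cells had a called PDS5A peak 53.7 kb after the gene end, and the nearest of untreated KO cells was 433 kb after it. Under osimertinib KO cells lacked all 3 called RAD21 sites of WT cells at METTL7B, or 3 of 5 sites, against 28.3% of RAD21 sites lost in the genome. They lacked both called PDS5A sites, or 2 of 9, against 20.5%. None of these RAD21 and PDS5A sites was called in treated WT cells at a global IDR of 0.01 or less. Most called peaks of treated WT cells were not called in treated KO cells anywhere, with 77% of RAD21 and 73.5% of PDS5A peaks so. Whether these loci differ from the genome was not tested, and so few sites cannot show it. At 1 of 5 RAD21 and 1 of 9 PDS5A sites treated KO cells had no listed peak, against 12.6% and 7.5% of sites in the genome. The H3K27Ac site was called in both.

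Rescue cells had called sites that KO cells lacked at both loci, for RAD21 only when untreated and at METTL7B. Untreated Rescue cells gained 4 of 9 PDS5A sites at METTL7B relative to untreated KO cells, against 29.4% of PDS5A sites in the genome, and 3 of the 9 had no listed peak in KO cells, against 16.1%, from a KO list of 9235 peaks. They gained 1 of 5 RAD21 sites there, against 10.1%, and 2 of 3 H3K27Ac sites at METTL7B and 1 of 5 at METTL7A, against 14.2%. Under osimertinib Rescue cells gained 4 of 9 PDS5A sites at METTL7B and 1 of 2 at METTL7A, against 17.6%, and 1 of 3 H3K27Ac sites at METTL7B, against 9.37%. They gained 0 of 5 RAD21 sites at METTL7B and 0 of 1 at METTL7A, against 15.8%. Of all called PDS5A peaks of Rescue cells, 94.2% of the untreated and 69.1% of the treated were not called in KO cells under the same treatment. For H3K27Ac these shares were 69.4% and 51.4%, and for RAD21 50% and 65%. Whether these loci differ from the genome was not tested, and so few sites cannot show it.

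Rescue cells, set against WT cells, lacked called RAD21 sites under osimertinib and had further called PDS5A and H3K27Ac sites with and without it. Treated Rescue cells lacked 3 of 5 RAD21 sites at METTL7B that were called in treated WT cells, against 17.8% of RAD21 sites lost in the genome. They gained 2 of 9 PDS5A sites at METTL7B and 1 of 2 at METTL7A, against 8.2%, and 1 of 3 H3K27Ac sites at METTL7B, against 10.4%. Untreated Rescue cells gained 4 of 9 PDS5A sites at METTL7B relative to untreated WT cells, against 27.7%, and 1 of 5 RAD21 sites, against 12.9%. For H3K27Ac they gained 2 of 3 sites at METTL7B and 1 of 5 at METTL7A, against 14.6%. Of called untreated Rescue peaks, 88.7% of PDS5A, 64.1% of RAD21 and 71.5% of H3K27Ac were not called in untreated WT cells. Of called treated Rescue peaks, 32.2% of PDS5A and 56.5% of H3K27Ac were not called in treated WT cells. Of called RAD21 peaks of treated WT cells, 48.5% were not called in treated Rescue cells. Where absent meant no listed peak, treated Rescue cells lacked 0 of 5 RAD21 sites at METTL7B, against 7.24%. Rescue cells then gained 0 of 9 PDS5A sites there, against 1.33% treated and 10.4% untreated. Still gained were 1 of 3 H3K27Ac sites at METTL7B when treated (1.96%). When untreated, these were 1 of 5 RAD21 sites at METTL7B (4.41%) and 1 of 5 H3K27Ac sites at METTL7A (3.15%). Comparisons that use the same list share it, and no site count has an error, since each condition had 1 list.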

How the data were processed

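The 24 lists of H3K27Ac, RAD21, PDS5A and IgG peaks (48 samples) were used; the 12 H2A samples were not analysed here. The submitters' processing notes name deepTools 3.5.1, bedtools 2.30, MACS2 2.2.7.1, SAMtools 1.16, Bowtie2 2.4.2, FastQC and Trimmomatic without their roles, and GRCh37 as build; thresholds, controls and the IDR version are not given in the sources used here. Used from the deposited lists were the −log10 p in each replicate (never under 3) and a score per peak, the global IDR on a −log10 scale, both as the authors deposited them. Labels give no number to the replicate columns of a list. Each list held peaks matched between both replicates, so a peak of 1 sample alone is missing. Peaks were ranked by the lower of the 2 replicate values. Values, widths and ranks depend on the list, and those of different lists are given side by side with no change read from them.

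Starts are given counted from 1. Sites are peaks joined by an overlap of 1 bp or more. Gained and lost sites were counted for 9 comparisons across all genome sites of chromosomes 1 to 22 and X. With 1 list a condition no test was made, and no source says that the 2 samples of a group came from separate cultures. The members and windows were chosen with earlier results of these data known. Sites named by position were those within 2 kb of a gene and, of the rest, the 3 in most lists and the 3 ranked highest; the others are given for completeness. The promoter motifs were not listed in advance. Python 3.11.15, numpy 2.4.6, pandas 2.3.3 and matplotlib 3.10.9 were used, and the overlap code was tested on simulated data.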

Additional observations from a re-analysis of the deposited data

Results flagged for a closer look

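The count of called RAD21 peaks at METTL7B was higher under osimertinib in WT cells and lower in Rescue cells. The number of called RAD21 peaks in the window, treated minus untreated, was 3 in WT cells and -1 in Rescue cells, and 0 in KO cells. Treated WT cells had 3 called peaks and untreated WT cells 0; treated Rescue cells had 0 and untreated Rescue cells 1. In the whole lists, called RAD21 peaks numbered 16659 in treated WT and 3692 in untreated WT cells, and 11106 in treated Rescue and 9191 in untreated Rescue cells, so the count at the locus went with its list in WT cells and against it in Rescue cells. The difference was not tested, since each condition had 1 list. At a global IDR of 0.01 or less, no RAD21 peak was called in this window in any condition. The Rescue peak that left the called set, 38.4 kb after the gene start, was still listed under osimertinib with a −log10 IDR of 1.222, just short of the limit of about 1.3.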

How the results depend on the processing

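The number of conditions, of 6, with a called peak was 1 for H3K27Ac, 0 for RAD21, 1 for PDS5A and 0 for IgG at METTL7A, and 4, 2, 3 and 0 at METTL7B. Taking every listed peak gave 4, 3, 4 and 0 at METTL7A and 6, 6, 6 and 2 at METTL7B. A global IDR of 0.01 or less gave 0 for H3K27Ac at METTL7A, where PDS5A stayed at 1. At METTL7B it gave 3 for H3K27Ac, 0 for RAD21 and 2 for PDS5A. The called peaks of treated WT cells there had −log10 IDR values of 1.373 to 1.778, and none passed the stricter limit. The sites that treated WT cells gained, and those that treated KO or Rescue cells lacked against them, therefore rest on the main limit. The H3K27Ac peak of treated KO cells (2.386) still passed. Limiting the region to the gene with 10 kb or with 2 kb on each side gave 0 for every antibody at both genes. The gene with 500 kb on each side gave 6 for H3K27Ac, RAD21 and PDS5A at both. Leaving out peaks on IgG peaks, asking for at least 50% of the peak inside the window, and using the boundaries of either replicate alone left every such count as it was. The IgG setting could not move them. METTL7A had no IgG peak, and each condition called at the METTL7B site with IgG peaks was called at another site too. The boundary setting kept the IDR of both replicates, so it does not test the call itself. No paired analysis was possible because each list joins its 2 replicates and no test was made. Ranks at the genes depended on the replicate used: the RAD21 peak at METTL7A ranked 4955 and 18933 from 1 replicate in treated Rescue cells (11547 by the lower value) and 13635 and 172 in untreated KO cells (12590). The genome-wide counts behind the gained and lost shares fell by more than 1.5 times in all 24 cases when absent meant no listed peak. Ranks among called peaks could not be had at the genes, where no peak was called. The lists give no read depth, and the part of depth in peaks missing from short lists was not tested.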
